A study of Mus musculus with 6 samples.

Results

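AMPA and kainate receptors are the ion channels that carry most fast excitatory transmission by glutamate. The genes described here are the 9 that encode their pore-forming subunits, Gria1 to Gria4 for AMPA receptors and Grik1 to Grik5 for kainate receptors. They were taken by symbol from the 47480 rows of the deposited expression table, and all 9 were present. RNA was sequenced from pieces of female mouse hypothalamus cut out by laser capture: VMHpvlm and VMHpvll, neighbouring areas of the ventromedial hypothalamus (VMH), with 3 libraries each. All mice in both groups carried VgluT2-cre and the Ai6 reporter, a Cre-dependent green fluorescent protein, so that green fluorescence marked cells that express, or once expressed, the glutamate transporter VgluT2 (Slc17a6). The labels give no age, hormonal state or number of animals, and the captured tissue was not sorted by the reporter. The comparison asks how the expression profiles of the adjacent areas differ, here for the glutamate-gated channels.

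A functional AMPA or kainate receptor is built of 4 subunits around a central pore. In AMPA receptors, the GluA2 subunit (from Gria2) decides whether calcium passes, because its transcript is edited by the enzyme encoded by Adarb1 at the codon of the pore called the Q/R site. In kainate receptors, the products of Grik1, Grik2 and Grik3 can form channels on their own, whereas those of Grik4 and Grik5 need such a partner. Auxiliary proteins of the TARP, cornichon and CKAMP families accompany AMPA receptors and set their gating and trafficking, and Neto1 and Neto2 do so for kainate receptors.

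The subunits share the pore, and the coding sequence around the Q/R site shows what they have in common and where the members most different between the areas diverge. The stretches below, for the subunits that can form channels on their own, come from GENCODE M21 transcripts on GRCm38 (mm10), 5′ to 3′, with 45 bases each and the Q/R codon in capitals.
Gria1: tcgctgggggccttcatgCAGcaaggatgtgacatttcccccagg
Gria2: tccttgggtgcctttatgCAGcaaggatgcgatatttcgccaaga
Gria3: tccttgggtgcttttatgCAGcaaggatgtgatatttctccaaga
Gria4: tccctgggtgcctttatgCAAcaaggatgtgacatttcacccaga
Grik1: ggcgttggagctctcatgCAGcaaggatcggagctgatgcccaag
Grik2: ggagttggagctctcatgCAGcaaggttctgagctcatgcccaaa
Grik3: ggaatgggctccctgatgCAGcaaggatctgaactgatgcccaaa
Gria2 and Gria3 were the closest of these, with 42 of 45 bases the same, and Gria1 and Gria2 shared 36. Grik1 and Grik2 shared 40 of 45 bases, and Grik1 and Grik3 shared 35. Over the whole coding sequence, aligned bases were identical at 71.7% to 74.6% among the 4 AMPA genes and at 63.6% to 73.4% among the 5 kainate genes. Over all annotated transcripts, 8 of the 36 pairs of members had any 50-base word in common, and no pair had more than 9. The counts are sums over whole genes and measure neither editing at this codon nor splice forms.

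On mm10, Gria1 lies on chromosome 11 from 57011387 to 57330244, Gria2 on chromosome 3 from 80681450 to 80802835, Gria3 on chromosome X from 41400854 to 41678601 and Gria4 on chromosome 9 from 4417896 to 4796234. Grik1 lies on chromosome 16 from 87895900 to 88290265, Grik2 on chromosome 10 from 49094833 to 49788766 and Grik3 on chromosome 4 from 125490700 to 125714173. Grik4 spans 42518135 to 42944493 on chromosome 9, and Grik5 spans 25009849 to 25072346 on chromosome 7. All are annotated as protein-coding. Exons of Gria1, Grik1, Grik2, Grik3 and Grik5 overlap no other gene, and in the other members a small RNA gene covers at most 0.99% of the exon bases.

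Levels are normalised read counts, the deposited counts of each gene divided by a size factor per library. Depth ran from 7157831 to 11293159 reads per library. Each area has 1 library whose title begins with F19, 1 with F20 and 1 with KH_161103, and values below are given in that order. A log2 difference subtracts VMHpvll from VMHpvlm after adding 1 to each value, as fitted by limma with the shared beginning as a pair block, and a gene was called at a Benjamini-Hochberg adjusted p below 0.05 over all 14522 tested genes. Whether libraries of a pair come from 1 animal is not stated, and the p-values therefore reflect only how these libraries vary, which may be technical. Known markers are given as a description of the areas, not as a check of their labels. Nr5a1, a transcription factor of VMH neurons, averaged 308 in VMHpvlm and 31.5 in VMHpvll. Esr1, the oestrogen receptor, averaged 513 in VMHpvlm and 1490 in VMHpvll, and Slc17a6 was high in both (4665 in VMHpvlm and 4946 in VMHpvll).

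All 9 subunits passed the filter on low values and were tested. Of them, 6 were higher in VMHpvlm (Gria2, Gria3, Gria4, Grik2, Grik3 and Grik4), 2 were higher in VMHpvll (Gria1 and Grik1), and Grik5 was not called. Among all tested genes 10.5% were called as higher in VMHpvlm and 9.48% as higher in VMHpvll. The values of the 3 VMHpvlm libraries did not overlap those of the 3 VMHpvll libraries for any of the 9 subunits, a pattern found in 28.0% of all tested genes. These shares of all tested genes were not matched for level. The share of tested genes with a higher mean ran from 0.599% for Gria1 to 40.7% for Grik1. The median difference was 0.28 for the subunits and 0.0025 for all tested genes, and the median absolute difference was 0.36 for the subunits and 0.15 for all tested genes. Grik3, Gria3 and Grik1 were called in each of the 15 alternative analyses, and no subunit changed direction in any of them. They passed narrowly with a variance prior without trend and robust (limma adjusted p = 0.0305, 0.038 and 0.0395). The SE and p-values of the main fit draw on the variance of all tested genes, not of the 3 pairs alone.

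**Figure D1:**
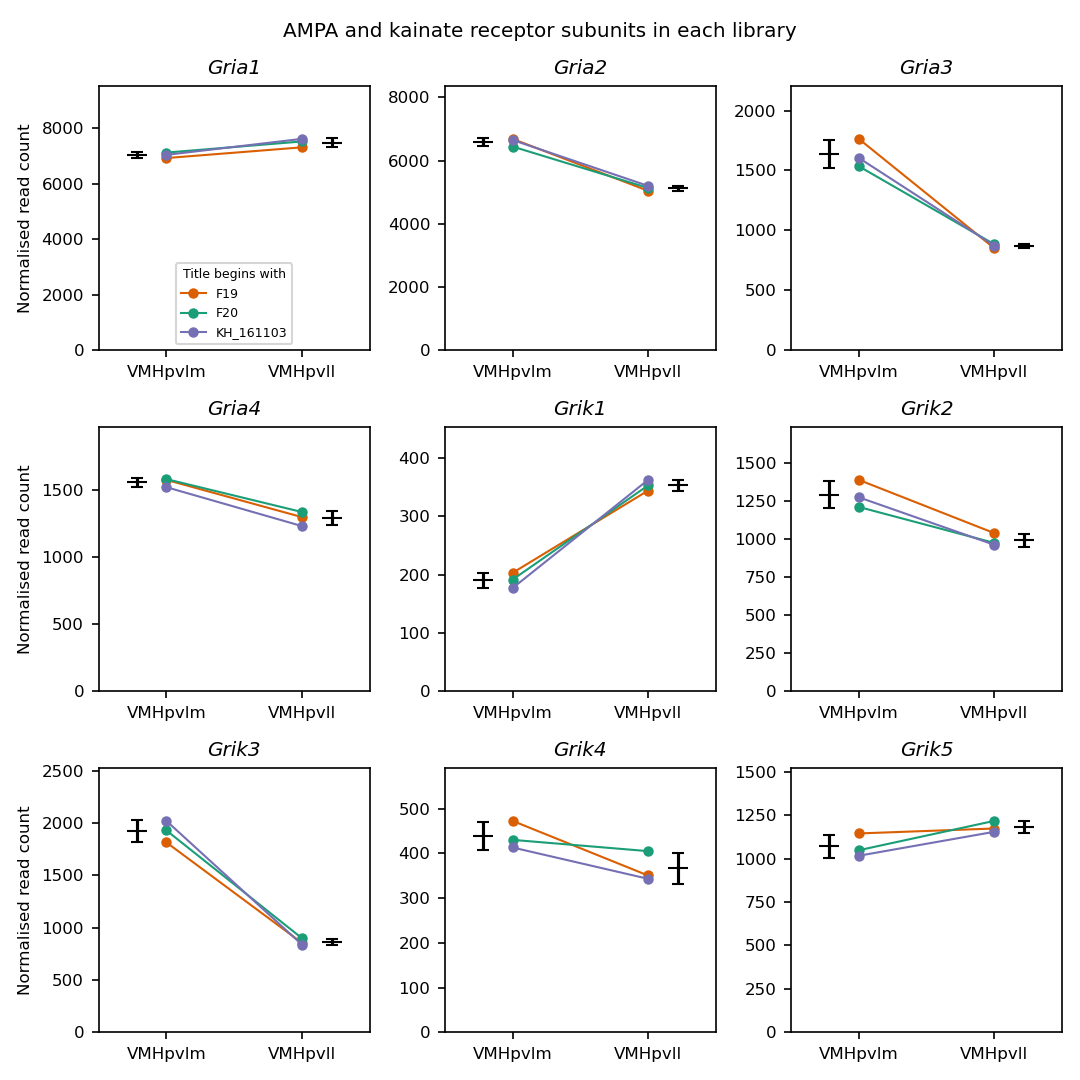
Normalised read counts of the 9 subunits in each library (vertical axes, starting at 0), with a line for each pair of libraries and the mean ± SD of 3 in black. Grik3 and Gria3 stand higher in VMHpvlm and Grik1 in VMHpvll, while Gria1 and Grik5 lie close together in both areas.

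Grik3, which encodes GluK3, a kainate subunit of low glutamate sensitivity, had the largest difference of the 9. It had 1816, 1931 and 2022 normalised counts in VMHpvlm, against 856, 901 and 840 in VMHpvll. Every VMHpvlm library had more than any VMHpvll library, in each of the 3 pairs. Mean levels were 1923 ± 103 in VMHpvlm and 866 ± 31.6 in VMHpvll (SD, n = 3 each), 2.22-fold higher in VMHpvlm (log2 difference 1.15 ± 0.05 SE, limma adjusted p = 7.63e-22). This difference ranked 304th by absolute size among all tested genes, and 2.09% of genes had a larger one.

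Grik1, which encodes GluK1, went the other way. It had 203, 192 and 177 normalised counts in VMHpvlm, against 344, 353 and 362 in VMHpvll. The libraries of the areas stood apart, and the gap was widest in the KH_161103 pair, with a log2 difference of -1.03 there against -0.76 in F19. Means were 191 ± 13.1 in VMHpvlm and 353 ± 9.18 in VMHpvll, so Grik1 was 1.85-fold higher in VMHpvll (log2 difference -0.89 ± 0.10 SE, limma adjusted p = 1.17e-09). These values rest on 138 to 397 reads per library, and counting error alone is 8.51% of the level in the shallowest case.

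Gria3, which encodes GluA3, was the AMPA subunit with the largest difference. It had 1763, 1535 and 1605 normalised counts in VMHpvlm, against 852, 885 and 874 in VMHpvll. The coefficient of variation was 7.16% in VMHpvlm, where F19 was the highest, and 1.91% in VMHpvll, and the areas did not overlap. Means were 1635 ± 117 in VMHpvlm and 870.1 ± 16.6 in VMHpvll, so Gria3 was 1.88-fold higher in VMHpvlm (log2 difference 0.91 ± 0.05 SE, limma adjusted p = 1.00e-17).

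Gria2 and Gria1, the most abundant AMPA subunits, moved in opposite directions. Gria2, the calcium-limiting subunit, had 6691, 6447 and 6655 normalised counts in VMHpvlm, against 5049, 5139 and 5205 in VMHpvll. It was 1.29-fold higher in VMHpvlm, with a log2 difference of 0.36 ± 0.03 SE (limma adjusted p = 6.88e-12) and no overlap between the areas. Gria1, which encodes GluA1, the subunit best known for its activity-dependent insertion at synapses, had 6932, 7129 and 7047 normalised counts in VMHpvlm, against 7318, 7530 and 7623 in VMHpvll. Its difference was small, 1.06-fold toward VMHpvll (log2 difference -0.09 ± 0.03 SE, limma adjusted p = 0.0343), and 67.1% of tested genes had a larger one. The call of Gria1 was lost in 8 of the 15 alternatives, among them each of the fits without F19, F20 or KH_161103 (adjusted p = 0.144, 0.0653 and 0.348) and the fit without the pair block (adjusted p = 0.256).

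Gria4 and Grik2 had moderate differences toward VMHpvlm. Gria4, which encodes GluA4, an AMPA subunit of fast gating, had 1577, 1582 and 1522 normalised counts in VMHpvlm, against 1299, 1337 and 1232 in VMHpvll (log2 difference 0.28 ± 0.05 SE, limma adjusted p = 2.44e-05). Grik2, which encodes GluK2, a common partner in kainate receptors of the brain, had 1390, 1212 and 1275 normalised counts in VMHpvlm, against 1040, 975 and 963 in VMHpvll (log2 difference 0.38 ± 0.05 SE, limma adjusted p = 2.68e-07). The fold toward VMHpvlm was 1.21 for Gria4 and 1.30 for Grik2, and each was higher there in 3 of 3 pairs.

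The subunits that need a partner differed least among the kainate genes. Grik4, which encodes GluK4, had 473, 430 and 413 normalised counts in VMHpvlm, against 351, 405 and 343 in VMHpvll. It was 1.20-fold higher in VMHpvlm (log2 difference 0.26 ± 0.08 SE, limma adjusted p = 0.019), but the pairs were uneven, at 0.43 in F19, 0.09 in F20 and 0.27 in KH_161103. The call was lost without F19 (adjusted p = 0.276), without KH_161103 (0.136) and without the pair block (0.077). Grik5, which encodes GluK5, had 1144, 1048 and 1016 normalised counts in VMHpvlm, against 1173, 1217 and 1154 in VMHpvll. All VMHpvll libraries were above all VMHpvlm libraries by a narrow margin, and the difference missed the threshold (log2 difference -0.14 ± 0.05 SE, limma adjusted p = 0.0529). It passed in 6 alternatives, including the fit without F19 (log2 difference -0.20, adjusted p = 0.0293).

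**Figure D2:**
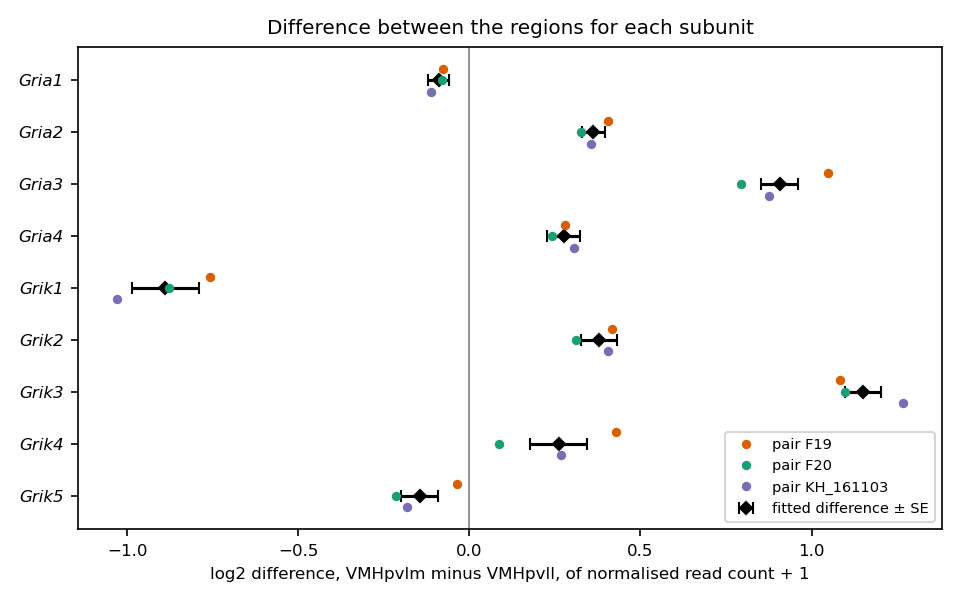
Log2 differences (VMHpvlm minus VMHpvll, horizontal axis) of the 9 subunits, with coloured points for the 3 pairs and black diamonds with bars for the fitted difference and its SE. The points of each gene lie on 1 side of 0, at 0.91 fitted for Gria3 and 1.15 for Grik3 on the right and at -0.89 for Grik1 on the left.

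Divided by the length of all annotated exons, the levels of different subunits can be set side by side. In VMHpvlm, Gria1 had 1164 ± 16.4 normalised counts per kb and Gria2 424 ± 8.45 per kb, followed by Gria4 (247 ± 5.26), Grik3 (214 ± 11.5), Grik5 (207 ± 12.9), Gria3 (166 ± 11.9), Grik2 (97.6 ± 6.81), Grik4 (73.6 ± 5.13) and Grik1 (28.4 ± 1.94). Of neighbours in this order, Grik3 and Grik5 overlapped between libraries, and the others did not. In VMHpvll, Gria1 had 1239 ± 25.9 and Gria2 330 ± 5.03 normalised counts per kb, followed by Grik5 (229 ± 6.23), Gria4 (205 ± 8.42), Grik3 (96.5 ± 3.53), Gria3 (88.3 ± 1.69), Grik2 (74.95 ± 3.11), Grik4 (61.4 ± 5.66) and Grik1 (52.5 ± 1.37), with no overlap between neighbours. Gria1 came first and Gria2 next in both areas also when the longest transcript or the coding length was used, while the order of the others changed with the length used. Annotated exons of Gria2 sum to 15.5 kb but its longest transcript to 10.4 kb, so its level per kb depends strongly on that choice.

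The make-up of the AMPA family differed between the areas in every library. Gria1 held 58.2% ± 0.91 of the AMPA sum per kb in VMHpvlm and 66.6% ± 0.47 in VMHpvll. Gria2 held 21.2% ± 0.41 in VMHpvlm and 17.7% ± 0.11 in VMHpvll, Gria3 8.28% ± 0.58 in VMHpvlm and 4.74% ± 0.034 in VMHpvll, and Gria4 12.4% ± 0.25 in VMHpvlm and 10.99% ± 0.51 in VMHpvll. None of the 4 shares overlapped between the areas, with any of the 3 lengths, but their sizes depended on the length used. With the coding length Gria1 held 41.3% in VMHpvlm and 50.1% in VMHpvll, and Gria2 held 39.7% in VMHpvlm and 35.3% in VMHpvll. The ratio of Gria2 to Gria1 per kb was 0.375, 0.352 and 0.367 in VMHpvlm and 0.268, 0.265 and 0.265 in VMHpvll. With the coding length in place of all exons this ratio was 0.96 in VMHpvlm and 0.70 in VMHpvll. Shares of a sum are tied to each other and to the values above, so they are given as a description without a test.

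Within the kainate family, Grik3 held a larger part in VMHpvlm, and Grik1 and Grik5 held smaller ones. Grik3 held 34.6% ± 2.57 of the kainate sum per kb in VMHpvlm and 18.8% ± 0.15 in VMHpvll. Grik1 held 4.57% ± 0.24 in VMHpvlm and 10.2% ± 0.46 in VMHpvll, and Grik5 33.3% ± 1.33 in VMHpvlm and 44.5% ± 0.078 in VMHpvll. The shares of Grik2 (15.7% in VMHpvlm and 14.6% in VMHpvll) and Grik4 (11.8% in VMHpvlm and 11.9% in VMHpvll) overlapped between the areas, although that of Grik2 did not with the longest transcripts (18.5% in VMHpvlm and 16.2% in VMHpvll). With the coding length the Grik2 share overlapped and leaned the other way (27.0% in VMHpvlm and 27.4% in VMHpvll). The ratio of Grik3 to Grik1 per kb was 6.70, 7.55 and 8.55 in VMHpvlm and 1.86, 1.91 and 1.74 in VMHpvll. Its mean was 4.13 in VMHpvlm and 0.999 in VMHpvll with the longest transcripts, and 10.5 in VMHpvlm and 2.53 in VMHpvll with the coding length. Together, Grik4 and Grik5 made up 45.2% ± 1.90 of the kainate sum in VMHpvlm and 56.4% ± 0.73 in VMHpvll. With the coding length they made up 29.4% in VMHpvlm and 39.8% in VMHpvll, and Grik5 alone 20.7% in VMHpvlm and 30.2% in VMHpvll. The kainate sum was 31.0% ± 0.71 of the AMPA sum in VMHpvlm and 27.6% ± 0.84 in VMHpvll, but 29.6% in VMHpvlm and 28.97% in VMHpvll, with overlap, when the longest transcripts were used.

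**Figure D3:**
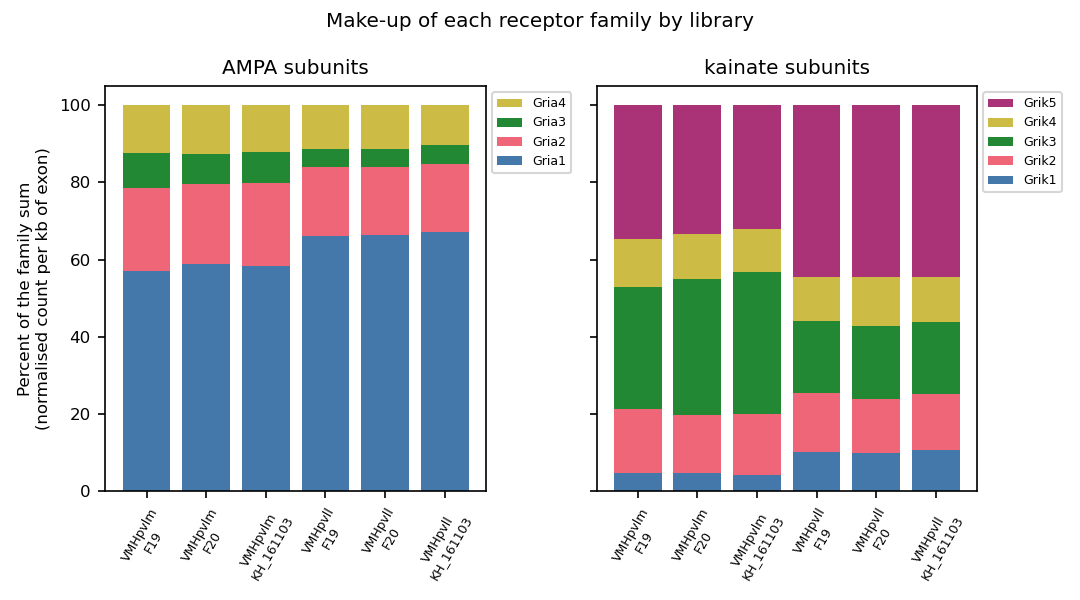
Share of each subunit in the summed level per kb of its family (vertical axis, percent) in each library, AMPA on the left and kainate on the right, with VMHpvlm libraries left of VMHpvll libraries. The Gria1 block is smaller in VMHpvlm (58.2%) than in VMHpvll (66.6%), and the Grik3 block is larger in VMHpvlm (34.6%) than in VMHpvll (18.8%).

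Captured tissue holds several cell types, and fewer cells of a type cannot be told apart from less RNA per cell. The 8 pan-neuronal markers summed to 33143 to 36235 normalised counts in VMHpvlm and 27855 to 31592 in VMHpvll, with 5 of 8 called higher in VMHpvlm and 0 in VMHpvll. Relative to that sum, 5 subunits remained higher in VMHpvlm in all pairs (Gria2 0.14, Gria3 0.68, Gria4 0.05, Grik2 0.16 and Grik3 0.93 as mean log2 ratios), Gria1, Grik1 and Grik5 were lower in VMHpvlm in all pairs (-0.31, -1.11 and -0.37), and Grik4 was mixed. The sum leans on its largest genes, and Snap25 averaged 10258 in VMHpvlm and 7275 in VMHpvll (log2 difference 0.50). The median log2 difference of the list was 0.15, and Tubb3, not called, was at -0.10. The sizes of these ratios, and for some subunits their direction, therefore depend on the markers summed. The log2 differences of Gria2 (0.36), Gria4 (0.28), Grik2 (0.38) and Grik4 (0.26) were below that of Snap25. That of Gria1 (-0.09) was slightly above that of Tubb3. Only Gria3 and Grik3 lay above every marker of the list, and only Grik1 and Grik5 below every one. The 3 GABAergic markers summed to 798 to 1054 in VMHpvlm and 1991 to 2306 in VMHpvll, and all were called higher in VMHpvll. Oligodendrocyte markers summed to 11667 to 13334 in VMHpvlm and 15675 to 16924 in VMHpvll, with 7 of 8 called higher in VMHpvll, and 4 of 5 markers of their precursors were called in the same direction (1671 to 1878 in VMHpvlm and 2080 to 2161 in VMHpvll). Vascular markers summed to 1480 to 1707 in VMHpvlm and 2164 to 2368 in VMHpvll, with 5 of 7 called higher in VMHpvll. Of 7 astrocyte markers, Slc1a2, Aqp4 and Gfap were called higher in VMHpvll and the other 4 were not called (median log2 difference of the list -0.12). Their sum, 25209 to 27320 in VMHpvlm and 30314 to 35254 in VMHpvll, was mostly Slc1a2, which averaged 19437 in VMHpvlm and 24863 in VMHpvll. Microglia markers summed to 1200 to 1321 in VMHpvlm and 1284 to 1443 in VMHpvll, and 0 of 8 were called. None of these markers was at 0 in all libraries. The part of these cell types in the subunit differences was not tested.

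Partner genes of the receptors went both ways. Of 55 tested genes in 7 lists, 16 were higher in VMHpvlm, 14 were higher in VMHpvll and 25 were not called, where 10.5% and 9.48% of all tested genes were called toward VMHpvlm and VMHpvll. Like the subunits, the lists were chosen with earlier results of these data known, so these shares are a description and no enrichment was tested. When any 1 of the 3 pairs was left out, 21 of the 30 called genes kept their call, and the exceptions are named below. Without the pair block, 7 of the 30 lost theirs: Frrs1l (adjusted p = 0.183), Dlg2 (0.152), Prkca (0.13), Porcn (0.071), Lrrtm2 (0.0688), Olfm1 (0.0602) and Lrrtm1 (0.0553).

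AMPA receptor auxiliary subunits split evenly, with 4 higher in VMHpvlm and 4 in VMHpvll of 14 tested (median log2 difference 0.07). Shisa9, which encodes the CKAMP protein that modulates short-term plasticity, averaged 977 ± 35.5 in VMHpvlm and 593 ± 43.6 in VMHpvll, and Shisa7 838 ± 99.3 in VMHpvlm and 679 ± 35.0 in VMHpvll. Their relative Shisa6 went the other way, with 62.3, 44.4 and 65.4 normalised counts in VMHpvlm, against 242, 173 and 202 in VMHpvll (log2 difference -1.83 ± 0.15 SE, limma adjusted p = 1.58e-13). The cornichons, which help AMPA receptors leave the endoplasmic reticulum, also diverged. Cnih3 averaged 412 ± 32.3 in VMHpvlm and 245 ± 10.5 in VMHpvll (log2 difference 0.74), and Cnih2 359 ± 8.49 in VMHpvlm and 436 ± 17.6 in VMHpvll (log2 difference -0.28, with adjusted p = 0.109 without KH_161103). Among the TARPs, Cacng2, the stargazin gene, averaged 663 ± 3.96 in VMHpvlm and 505 ± 33.8 in VMHpvll, and Cacng4 797 ± 29.6 in VMHpvlm and 1172 ± 43.5 in VMHpvll. Prrt1, a synaptic AMPA receptor partner, averaged 619 ± 92.96 in VMHpvlm and 881 ± 73.3 in VMHpvll.

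The auxiliary subunits of kainate receptors moved in opposite directions. Neto2 had 452, 391 and 408 normalised counts in VMHpvlm, against 964, 832 and 1070 in VMHpvll, and was the partner gene of kainate receptors with the largest difference (log2 difference -1.19 ± 0.07 SE, limma adjusted p = 4.66e-18). Neto1 had 395, 332 and 401 normalised counts in VMHpvlm, against 275, 250 and 272 in VMHpvll (log2 difference 0.50 ± 0.09 SE, limma adjusted p = 3.16e-05). Of the 5 kainate partners, C1ql3, a secreted synaptic protein, was also higher in VMHpvll (38.3 ± 6.83 in VMHpvlm and 69.6 ± 3.80 in VMHpvll), with adjusted p = 0.0524 without KH_161103. Genes on the other strand cover 64.2% of the exon bases of C1ql3, so its reads are uncertain.

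Extracellular organisers, secreted or adhesive proteins that cluster AMPA receptors at synapses, had 4 genes higher in VMHpvlm and 4 in VMHpvll of 10 tested (median -0.01). Nptx1, neuronal pentraxin 1, had 3198, 3305 and 3475 normalised counts in VMHpvlm, against 1116, 1400 and 1077 in VMHpvll (log2 difference 1.48 ± 0.07 SE, limma adjusted p = 7.51e-10), the largest difference among the partners toward VMHpvlm. The pentraxin receptor Nptxr averaged 2767 ± 189 in VMHpvlm and 2149 ± 193 in VMHpvll, although 17.2% of its exon bases overlap Npcd. Nptx2, an activity-regulated pentraxin, went the other way (918 ± 48.5 in VMHpvlm and 1178 ± 29.8 in VMHpvll), as did Lrrtm4 (234 ± 21.1 in VMHpvlm and 332 ± 20.8 in VMHpvll), although 25.1% of the exon bases of Lrrtm4 overlap Gm4409. Lrrtm1 and Olfm3 were higher in VMHpvlm and Lrrtm2 and Olfm1 in VMHpvll, but each lost its call when 1 or 2 of the pairs were left out in turn. Lrrtm1 and Olfm3 lost theirs without KH_161103 (adjusted p = 0.199 and 0.0689), Olfm1 without F19 (0.113), and Lrrtm2 without F19 (0.113) and without KH_161103 (0.117).

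Scaffolds and trafficking adaptors had 1 of 11 tested genes higher in VMHpvlm and 3 in VMHpvll (median -0.10). Nsf, an ATPase that binds GluA2, averaged 7349 ± 169 in VMHpvlm and 5955 ± 234 in VMHpvll. Grip2, a PDZ protein that binds GluA2 and GluA3, averaged 113 ± 9.76 in VMHpvlm and 162 ± 11.02 in VMHpvll, and Akap5, an anchor for protein kinase A, 123 ± 38.0 in VMHpvlm and 202 ± 32.4 in VMHpvll, with overlap between the areas. Dlg2 was called toward VMHpvll with a log2 difference of -0.13 and lost the call without F20 (adjusted p = 0.196) and without KH_161103 (0.136). The biogenesis factor Frrs1l averaged 2620 ± 312 in VMHpvlm and 2155 ± 299 in VMHpvll (log2 difference 0.28), with overlap between the areas. Porcn was higher in VMHpvll (log2 difference -0.39) and lost the call without F19 (0.0792) and without KH_161103 (0.146).

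Of the RNA editing genes, Adarb1, whose product edits the Q/R codon shown above, was not called, at 1546 ± 49.7 in VMHpvlm and 1489 ± 99.6 in VMHpvll (log2 difference 0.06 ± 0.05 SE, limma adjusted p = 0.476). Adar, which edits other sites, averaged 2558 ± 45.9 in VMHpvlm and 2152 ± 188 in VMHpvll, with 16.8% of its exon bases overlapping Chrnb2. Adarb2, a brain relative without known editing activity, averaged 805 ± 39.2 in VMHpvlm and 564 ± 53.2 in VMHpvll. Of the 7 kinases tested, Camk2b (6437 ± 320 in VMHpvlm and 5374 ± 220 in VMHpvll), Prkcb (2297 ± 81.5 in VMHpvlm and 1688 ± 104 in VMHpvll) and Prkca (log2 difference 0.16) were higher in VMHpvlm and 0 in VMHpvll. Prkca lost its call without F20 (adjusted p = 0.0839) and without KH_161103 (0.347).

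**Figure D4:**
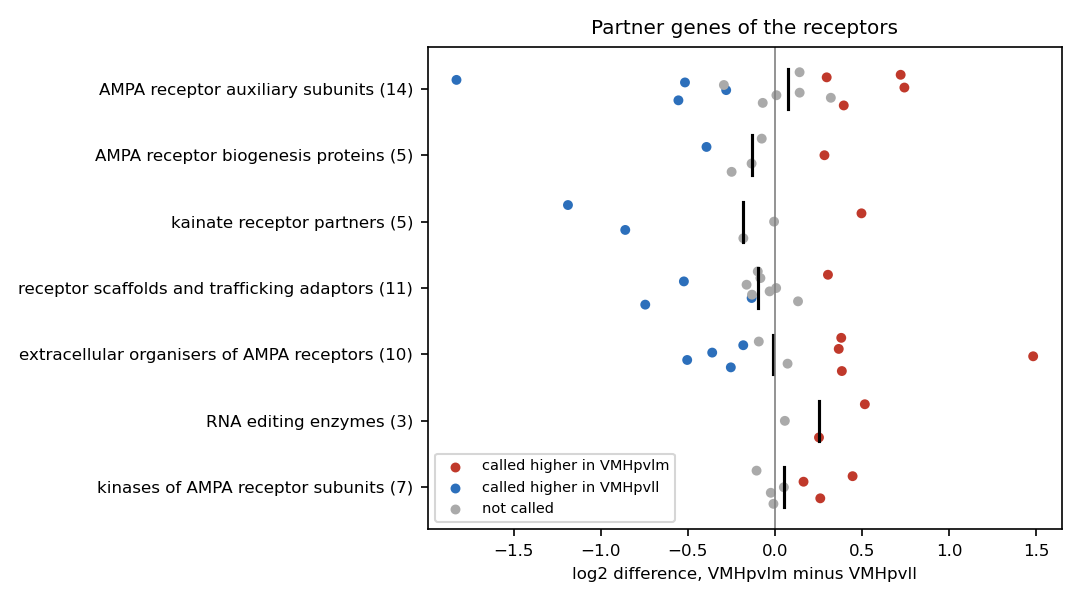
Fitted log2 differences (VMHpvlm minus VMHpvll, horizontal axis) of tested partner genes in 7 lists, with the number tested in brackets and a black line at each list's median. Red points were called higher in VMHpvlm (16 genes), blue points higher in VMHpvll (14 genes) and grey points were not called (25 genes), and called points lie on both sides of 0 in 5 of the lists.

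The genes whose levels followed those of a called subunit most closely over the 6 libraries were found by Pearson's r among genes with a mean of at least 50. For Grik3 they were Slit2 (r = 0.9994), Fam212b (0.9994) and Prkacb (0.9986). For Gria3 they were Cfap46 (0.9971), Hmcn2 (0.9968) and Brinp3 (0.9965), and for Grik1 they were Smim3 (0.9983), Eif3b (0.9975) and Dnm3 (0.997). For Gria2 they were Pde8b (0.9985), Cpne6 (0.9964) and Spats2l (0.9962), for Gria4 Tmem35 (0.9966), Oprk1 (0.9957) and Adamts2 (0.9955), and for Grik2 Syne1 (0.9985), Skil (0.9982) and Sgpp1 (0.9969). For Gria1 they were Yipf3 (0.9978), Wipi1 (0.9933) and Anks1b (0.992), none of which was called between the areas, and for Grik4 they were Fbxl18 (0.9897), Mta3 (0.9875) and Camta1 (0.9865). Over all 8 called subunits, r of the 24 closest genes ran from 0.9865 to 0.9994. The 6 points fall into 2 areas and share depth within a library, so such values carry the difference between areas, and no test was made.

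Promoter sequence was at hand for 6 of the 9 subunits (RefSeq, GRCm38.p6, from 250 bases before to 50 after the start): Gria2, Gria4, Grik2, Grik3, Grik4 and Grik5. That of Grik3, the subunit with the largest difference, is shown because it stands at one end of base composition. It lies at chr4:125490446-125490745 on the plus strand, and CG dinucleotides are in capitals.
Grik3: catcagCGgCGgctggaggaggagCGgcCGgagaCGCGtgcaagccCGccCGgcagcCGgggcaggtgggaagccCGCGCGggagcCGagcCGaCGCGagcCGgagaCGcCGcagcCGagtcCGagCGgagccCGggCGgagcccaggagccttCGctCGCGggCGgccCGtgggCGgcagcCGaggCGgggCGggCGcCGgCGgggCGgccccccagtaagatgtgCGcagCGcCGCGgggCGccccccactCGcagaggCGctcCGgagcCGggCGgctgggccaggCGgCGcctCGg
It held 50 CG dinucleotides and 82.0% G or C, and 0.715% of 32851 promoters held more CG dinucleotides. The other promoters held 42 (Grik4), 26 (Gria2), 26 (Grik2), 17 (Gria4) and 10 (Grik5), against a median of 7. On either strand, none of the 6 held TATAAA (in 13.6% of all promoters), the Nr5a1 motif CAAGGTCA (1.56%) or the cAMP response element TGACGTCA (1.79%). CCAAT (37.4% of all promoters) occurred at 2 places in Gria4 and in none of the other 5. These matches describe letters in a short window only.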

How the data were processed

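RNA from 3 VMHpvlm and 3 VMHpvll captures was extracted with the PicoPure kit and made into libraries with a stranded total RNA kit, per the labels' protocols. The submitters' processing notes name HISAT2, featureCounts and mm10, and the annotation, scaling tool and strand setting were not stated. The deposited values are a normalised signal: gene counts divided by the authors by 1 size factor per library. In every library 100% of non-zero values were whole multiples of 1 read within 0.05 reads, which gave 7157831 to 11293159 recovered reads. Of these, the gene Gm42418 held 15.1%, 11.6% and 14.3% in VMHpvlm (F19, F20 and KH_161103) and 17.9%, 15.1% and 14.4% in VMHpvll. Of 47480 rows, 27 had names turned into dates, and none of these was a subunit.

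R 4.3.3 and limma 3.58.1 (eBayes with trend and robust) were run on log2(value + 1) for 14522 genes with a mean of at least 10, with the area and the pair name as terms, 2 residual degrees of freedom and a median prior of 39.9. The pseudocount understates changes of low genes. The title beginnings were taken in advance to pair libraries. Deviations from area means correlated at 0.26, 0.24 and 0.36 within the F19, F20 and KH_161103 pairs and at -0.25 to 0.01 across them. Deviations sum to 0 within an area, so positive values within pairs push those across pairs down, and the contrast is not independent support. The KH_161103 titles name no area, which was taken from the source name. Chi-square per degree of freedom between libraries of 1 area was 5.49 to 9.89, above sampling noise.

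Alternatives were no block, other pseudocounts, filters, scalings and variance prior, edgeR 4.0.16 and DESeq2 1.42.0 on recovered reads, and leaving out each pair. Exon lengths and positions came from GENCODE M21. Sequences were aligned with Biopython 1.88. The subunits, partner lists and marker lists were chosen with earlier results of these data known. All 9 subunits were named, with every called partner gene and, per called subunit, the 3 genes of highest r. Adarb1 and single marker genes were named outside this rule, after their values were seen.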

Additional observations from a re-analysis of the deposited data

How the results depend on the processing

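No subunit changed direction in the 15 alternatives: of 135 subunit values, 113 kept their side of the threshold, 16 lost a call and 6 gained one. The 6 subunits called toward VMHpvlm fell to 2 (Grik3 and Gria3) with a variance prior without trend and robust, where only 189 and 233 of all genes were called toward VMHpvlm and VMHpvll and 3 and 2 partner genes. Of the 2 called toward VMHpvll, 1 was left (Grik1) with that prior, with libraries scaled to the same total, by DESeq2 and with no replicate block. Without F20 or KH_161103 the count toward VMHpvll was also 1 (Grik1). Without F19 and by edgeR it was 2, but these were Grik1 and Grik5, and Gria1 lost its call. The count was 3, with Gria1, Grik1 and Grik5, with TMM or upper-quartile scaling, with Gm42418 left out of the total (an alternative chosen after seeing the data) and with a mean of at least 50. Without the pair block 937 and 863 of all genes were called (VMHpvlm, VMHpvll), by DESeq2 648 and 582, and without a pair 935 to 1511 and 838 to 1361, lowest without KH_161103. Partner genes called toward VMHpvll were 7 by DESeq2 and 9 to 14 without a pair. Counts within single lists stayed within 1.5 times in 183 of 210 cases. These cases include the RNA editing genes and the kinases, which had 0 calls toward VMHpvll throughout, and no list had more than 4 calls in a direction in the main fit. With the block, leaving out a library equals leaving out its pair. Counts of 138 to 397 reads limit Grik1 and 272 to 455 limit Grik4.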
